A study of Mus musculus with 10 samples.

Results

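The Myc network genes of the mouse, Myc, Mycn, Mycl, Max, Mxd1, Mxi1, Mxd3, Mxd4, Mnt and Mga, were examined for accessible chromatin in fibroblasts. Every listed site that lay in the body of one of these 10 genes or within 100 kb of it was taken, and for Myc also the sites of the 2 Mb downstream that hold the long non-coding RNA gene Pvt1. This gave 443 sites of the 153924 in the list, with 214 in the bodies and flanks and 241 in the downstream region of Myc, of which 229 lay beyond its first 100 kb. The choice used positions alone and no measured value.

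The sites come from ATAC-seq, a sequencing assay of transposase-accessible chromatin in which the Tn5 transposase cuts open chromatin. The cells were immortalized mouse embryo fibroblasts (iMEF) with Cre-ER, whose endogenous Ash2l had lost exon 4 after 4-hydroxytamoxifen and which lived on a lentiviral fusion of FKBP12F36V, 2 HA tags and human ASH2L, in a single clone, NG3, obtained by limiting dilution. The 10 libraries were 2 replicates each of cells without dTAG (titled WT in the labels, which state no other genotype for them) and of cells exposed for 30 min, 4 h, 8 h or 24 h to dTAG-13, a compound that ties the FKBP part to Cereblon and so triggers degradation of the fusion protein. According to the authors' methods, the control cells received ethanol. The deposited list pools all sites over these libraries and gives no signal for any of them, so the effect of dTAG-13 on the Myc network was not analysed here, no value carries a replicate error, the depth is unknown, and a listed site was accessible in 1 or more of the conditions.

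MYC, MYCN and MYCL are transcription factors that bind DNA as dimers with MAX, preferentially at E-boxes, and promote growth and proliferation. The MXD proteins, MXI1 among them, and MNT compete for MAX and recruit SIN3 and histone deacetylases to the same E-boxes. MGA also dimerizes with MAX, carries a separate T-box domain and works in a Polycomb complex with PCGF6, L3MBTL2 and E2F6. In many cell types Myc is controlled by enhancers spread over the gene-poor region on its downstream side, within and beyond Pvt1.

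Because MAX dimers bind the E-box CACGTG, which reads the same on both strands, this hexamer was searched in the sites. The following stretches hold the E-boxes that lie in the promoter sites of Mycl, Max, Mxd3, Mxd4 and Mnt, within 400 bp before the 5′ end of the gene or, for Mycl, in the transcribed part. They are printed in the direction of transcription (build GRCm38/mm10), with the E-box in capitals, and stretches were shortened where they met annotated exons. The first stretch of Max still holds 30 bases and that of Mnt 13 bases that GENCODE or RefSeq assigns to an exon.
Max, chr12:76962234-76962263, minus strand: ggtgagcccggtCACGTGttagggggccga
Max, chr12:76962461-76962586, minus strand: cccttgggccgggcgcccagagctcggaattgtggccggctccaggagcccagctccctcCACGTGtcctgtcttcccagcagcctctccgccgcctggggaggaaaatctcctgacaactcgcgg
Mxd3, chr13:55329949-55330074, minus strand: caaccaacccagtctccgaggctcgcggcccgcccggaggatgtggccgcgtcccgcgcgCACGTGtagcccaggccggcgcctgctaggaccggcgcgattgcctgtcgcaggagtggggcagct
Mxd4, chr5:34187864-34187989, minus strand: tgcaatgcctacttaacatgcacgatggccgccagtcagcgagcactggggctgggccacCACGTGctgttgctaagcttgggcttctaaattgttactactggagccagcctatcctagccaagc
Mnt, chr11:74830741-74830818, plus strand: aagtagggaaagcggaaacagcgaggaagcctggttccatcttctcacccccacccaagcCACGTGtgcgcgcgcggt
Mycl, chr4:122997120-122997245, plus strand: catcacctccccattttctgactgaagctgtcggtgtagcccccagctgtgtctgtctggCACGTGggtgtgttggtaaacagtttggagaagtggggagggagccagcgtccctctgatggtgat

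All 10 members carried at least 1 promoter site, that is, a site overlapping the window of 1 kb either side of an annotated start site, whereas 70.8% of the 21938 protein-coding genes did. Sites farther from every start site of the GENCODE annotation are called distal. The members held 19 promoter sites, and 35 of their 57 start sites were covered by one. At 9 members a promoter site covered the 5′ end itself, the exception being Mycn. For covered starts and 5′ ends the shares over all genes are not given here, so these counts are descriptive. The widest promoter site of each member had a median width of 1614.5 bp, compared to 1412 bp over the 15530 protein-coding genes with a promoter site, and 6 members lay above that median. The widths ranged from 653 bp at Mycn to 3193 bp at Mnt. The widest promoter site overlapped a CpG island in 9 of 10 members and in 76.2% of the genes with a promoter site.

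**Figure D1:**
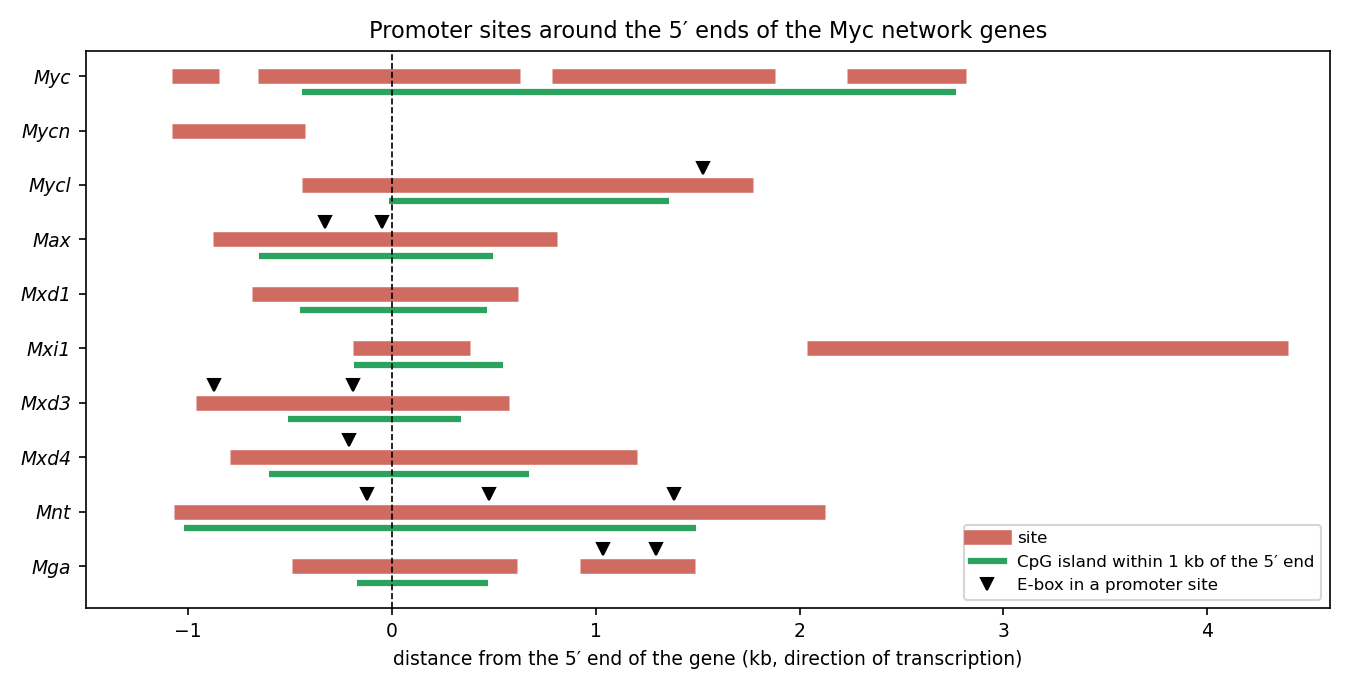
Promoter sites of the 10 Myc network genes (red bars), CpG islands within 1 kb of the 5′ end (green bars) and E-boxes in promoter sites (triangles), by distance from the 5′ end of the gene in kb in the direction of transcription. A site crosses the 5′ end in each gene except Mycn, and the E-boxes of Max, Mxd3, Mxd4 and Mnt include 1 or more within 400 bp before it. Sites beyond 4.6 kb, at Max, Mxi1 and Mnt, are outside the plot.

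The E-box was found in the widest promoter site of 5 of 10 members, Mycl, Max, Mxd3, Mxd4 and Mnt, compared to 26.9% of the genes with a promoter site. Among the 10732 genes whose widest promoter site was 1000 to 3200 bp wide and overlapped an island, as at most members, the share was 31.5%. The number of members is small and the members were chosen by function, so the count is given as a description. In the 200 bp at the middle of the site, 3 members, Max, Mxd3 and Mnt, held the E-box. The shares of 26.9% and 31.5% refer to whole sites and cannot be set beside this count. The share over all genes for the middle 200 bp is not given here. In the RefSeq promoter windows of 300 bases (GRCm38.p6), which reach from 250 before to 50 after a start, 9 members were matched by symbol, Myc not being in the table. The E-box occurred in those of Max, Mnt and Mxd4, against 8.09% of 27025 genes. That share is over all entries, without a limit to coding genes or to genes with a promoter site.

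The other motifs searched, on both strands, were TGANTCA for AP-1 (FOS and JUN dimers, and counting every base at N), GCGNGGGCG for EGR proteins, TTTNNCGC for E2F proteins and the consensus of the insulator protein CTCF. The widest promoter site held the EGR motif in 5 members (25.4% of the genes with a promoter site), the E2F motif in 4 (27.9%), the AP-1 motif in 3 (26.3%) and the CTCF consensus in 1, Mycl (2.99%). A match says only that the letters are present in the site. The usual AP-1 site has C or G at the N. The pattern TGANTCA is wider, and matches with A or T there were not counted apart.

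Of the MYC proteins that activate transcription, Myc itself is the family member that most proliferating cells express. The gene lies at chr15:61985391-61990374 on the plus strand. With 4 promoter sites, Myc belonged together with Mxi1 to the 6.85% of protein-coding genes with 3 or more. The first, of 231 bp, ended at −849 bp from the 5′ end. The second, of 1285 bp (chr15:61984735-61986019), covered the 5′ end and 4 of the 6 start sites. The third, of 1094 bp (chr15:61986176-61987269), reached from 785 to 1878 bp into the gene and had its middle in the first intron. The fourth, of 585 bp (chr15:61987622-61988206), lay in an exon, between 2231 and 2815 bp from the 5′ end. A CpG island of 3210 bp overlapped the last 3 of these sites. None of the 4 sites held an E-box, while the second and the third held 1 E2F motif each and the fourth 1 EGR motif.

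Mycn, the family member known from neural progenitors and neuroblastoma, had the fewest listed sites and the narrowest widest promoter site of the members. The gene (chr12:12936093-12941914, minus strand) and its flanks held 2 sites, equal to 0.97 sites per 100 kb, and 10.0% of protein-coding genes had a lower density. Its promoter site of 653 bp (chr12:12942340-12942992) ended at −426 bp from the 5′ end, and 8.10% of genes with a promoter site had a narrower one. The second site, of 330 bp, was located in an intron, 3521 bp downstream of the 5′ end. The nearest sites beyond the window were 514.8 kb past the 3′ end and 270.0 kb before the 5′ end, so that these 2 sites stood alone in 790.6 kb. No island was called within 1 kb of the 5′ end when soft-masked repeats were left out, although islands of 396 and 799 bp were found in the gene body, with 0 sites on either. When repeats were left in, an island of 3115 bp was called at the 5′ end, and the statement that Mycn lacks an island thus rests on the masking.

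Mycl, first described in lung cancer, differed from Mycn. A single promoter site of 2211 bp (chr4:122995212-122997422) covered 3 of its 5 start sites, from −440 to 1770 bp relative to the 5′ end, and was wider than those of 91.9% of genes with a promoter site. Its E-box lay 1528 bp into the gene, beyond the island. The gene and its flanks held 20 sites, of which 17 were distal, and no other site fell in the gene body. Among the MYC genes, Myc and Mycl thus showed promoter sites over their starts, whereas the site of Mycn lay beside its start.

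Max encodes the common partner of the network. Its main promoter site spanned 1690 bp (chr12:76961389-76963078), covered 4 of 7 start sites and held E-boxes at −50 and −325 bp from the 5′ end, the first and second stretches printed above. A second promoter site of 1426 bp (chr12:76954381-76955806), outside any island, lay over an internal start 7792 bp downstream and held a further E-box at 6699 bp. The gene and its flanks contained 24 sites, 21 of them distal, while the only sites in the gene body were those at its promoters.

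Of the repressors, Mxd1, which is induced when cells differentiate, carried 1 promoter site of 1307 bp (chr6:86668540-86669846) over 3 of its 4 start sites, without an E-box and with 1 EGR motif at −318 bp from the 5′ end. Mxd3, which is expressed in proliferating precursors, had 1 promoter site of 1539 bp (chr13:55329247-55330785) over all 4 start sites, with E-boxes at −191 and −871 bp. It also held 2 E2F motifs, 1 EGR motif and 1 AP-1 motif. Mxd4, another antagonist of MYC, had 1 promoter site of 1995 bp (chr5:34186518-34188512) over 2 of 4 start sites, with an E-box at −209 bp, 2 EGR motifs and 1 E2F motif. These 3 genes therefore had the same layout of 1 site on 1 island. All held an EGR motif, while the E-box and the E2F motif were absent from the site of Mxd1 only.

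Mxi1 had the most sites of the members, 34 in the window and 13 in its body, and 93.2% of protein-coding genes had fewer sites in the body. The gene (chr19:53310518-53375810, plus strand) has 9 start sites, and its 4 promoter sites covered 1, 1, 5 and 1 of them. The site at the 5′ end was the narrowest with 577 bp. The widest, of 2358 bp (chr19:53312555-53314912), covered the start 2548 bp downstream. A site of 1317 bp (chr19:53329080-53330396) covered 5 starts, and a site of 919 bp, outside any island, covered the start at 59505 bp. None of these 4 sites held an E-box. Of the sites in the body, 7 were distal, and 1 of them, of 1040 bp and 43998 bp from the 5′ end, held 2 E-boxes. A distal site of 679 bp beyond the gene, 146408 bp from the 5′ end in an intron of Mirt1, also held 2.

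Mnt, the repressor that is present in most cells, had the widest promoter site of the members. The site spanned 3193 bp (chr11:74829851-74833043), and 99.5% of genes with a promoter site had a narrower one. It lay on an island of 2514 bp and held 3 E-boxes, at −119, 476 and 1382 bp from the 5′ end, the middle one in an exon. A second promoter site of 1718 bp (chr11:74837540-74839257) started 6620 bp downstream, on another island, and held none. Of the 26 sites around Mnt, 20 were distal, and together the sites covered 11.8% of the window, the highest share of the 10 members.

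Mga (chr2:119897228-119969581, plus strand) has 12 start sites, of which its promoter site of 1103 bp (chr2:119896738-119897840) covered 4. This site held no E-box, but a second promoter site of 564 bp, 922 to 1485 bp downstream, held 2. Between neighbouring sites that both lay in a member window, the longest distance, 52.6 kb, was found around Mga, in a window of 272.4 kb. Stretches from the outermost sites to the window edges were not counted. These were longer at Mycn, whose window held only 2 sites.

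Around the members, sites were in general not rare. Per 100 kb, the windows held a median of 10.0 sites, compared to 8.48 (quartiles 5.00 and 11.7) over all protein-coding genes, and 8 of 10 members lay above that median. The highest densities were those of Mxi1 with 12.8, Myc with 12.7 and Mnt with 12.1 sites per 100 kb. Max (10.7), Mxd4 (10.3), Mxd3 (9.77), Mycl (9.67) and Mxd1 (8.55) followed, while Mga (7.71) and Mycn (0.97) lay below the median of all genes. Myc lies on chromosome 15, where the median bin of 100 kb held 10 sites, compared to 6 on the other autosomes. Its density exceeded that of 81.4% of all protein-coding genes, but of only 31.7% of those on the same chromosome. A single list without replicates gives no error for the order of neighbouring values.

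**Figure D2:**
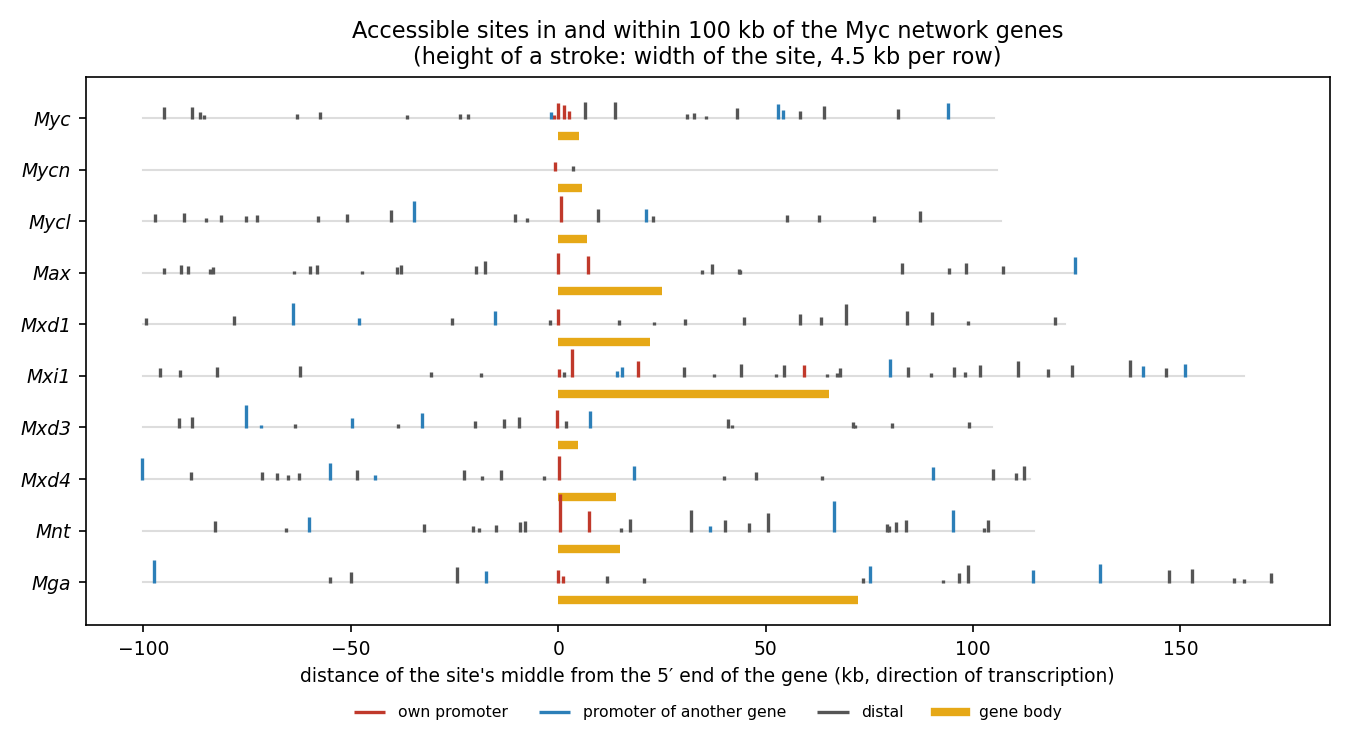
Positions of the 214 sites in the bodies and within 100 kb of the 10 genes, by distance of the middle of the site from the 5′ end in kb. Strokes in red are promoter sites of the gene itself, in blue those of other genes and in grey distal sites, the height of a stroke is the width of the site, and the bars mark the gene bodies. The row of Mycn holds 2 sites, and the others hold 19 to 34.

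Of the 214 sites, 161 were distal. Among these, 16 or 9.94% (95% Wilson interval 6.21 to 15.5%, which covers the sampling of sites only) held an E-box, compared to 7.78% of all distal sites. The AP-1 motif was present in 67 or 41.6%, compared to 39.8% of all distal sites, and the EGR motif in 0 of 161, compared to 0.438%. The median width was 569 bp, compared to 565 bp over all distal sites. By these measures the distal sites near the members were close to the remainder of the list.

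The widest distal site of each window was placed between 3.52 and 137.8 kb from the 5′ end. Those of Mnt (1823 bp, chr11:74861927-74863749, in an intron of Sgsm2) and Mxd1 (1802 bp, chr6:86598997-86600798, intergenic) were wider than 99.1 and 99.0% of distal sites, respectively. At Myc the widest, of 1417 bp (chr15:61998461-61999877), lay 13.8 kb downstream of the 5′ end and held 3 AP-1 motifs. A neighbour of 1361 bp (chr15:61991128-61992488), 6417 bp from the 5′ end, also held 3. The stretch of the former with its closest pair of motifs, in capitals, is shown because AP-1 was the most frequent of the motifs around Myc. It was also the most frequent over all distal sites, at 39.8%. Both matches are spelled TGAATCA, with A at the N, and so fall outside the usual AP-1 site, which has C or G there. The same run of bases precedes each, so they are not independent matches.
Myc distal, chr15:61998926-61999081, plus strand: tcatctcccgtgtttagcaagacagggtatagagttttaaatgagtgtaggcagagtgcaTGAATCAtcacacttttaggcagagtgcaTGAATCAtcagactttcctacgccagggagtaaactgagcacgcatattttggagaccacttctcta

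The 2 Mb downstream of Myc (chr15:61990375-63990374) contained 241 sites, 225 of them distal, or 120.5 sites per Mb. On the other side, the 2 Mb upstream contained 185 sites, or 92.5 per Mb. Over 48 other windows of 2 Mb on chromosome 15 the median was 104.5 sites per Mb, and 14 of these windows were denser than the downstream region. On the other autosomes the median of 1129 windows was 61.5, and 35 were denser. The region was thus denser than 68.8% of the windows of its own chromosome and than 96.7% of those of the other autosomes.

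Downstream of Myc, sites were denser in the first 500 kb than in the rest of the region. These 500 kb held 86 sites or 35.7% of the 241, with 12 sites in the bin next to Myc and 14 to 22 in the other bins of 100 kb, whereas the following 1.5 Mb held 5 to 17 per 100 kb. On average, this was 17.2 against 10.3 sites per 100 kb, a ratio of 1.66. The cut at 500 kb was not planned and falls where the count per bin drops from 20 to 9. The ratio is therefore only a description of these bins. The first 500 kb upstream held 43 sites, 6 to 12 per 100 kb.

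**Figure D3:**
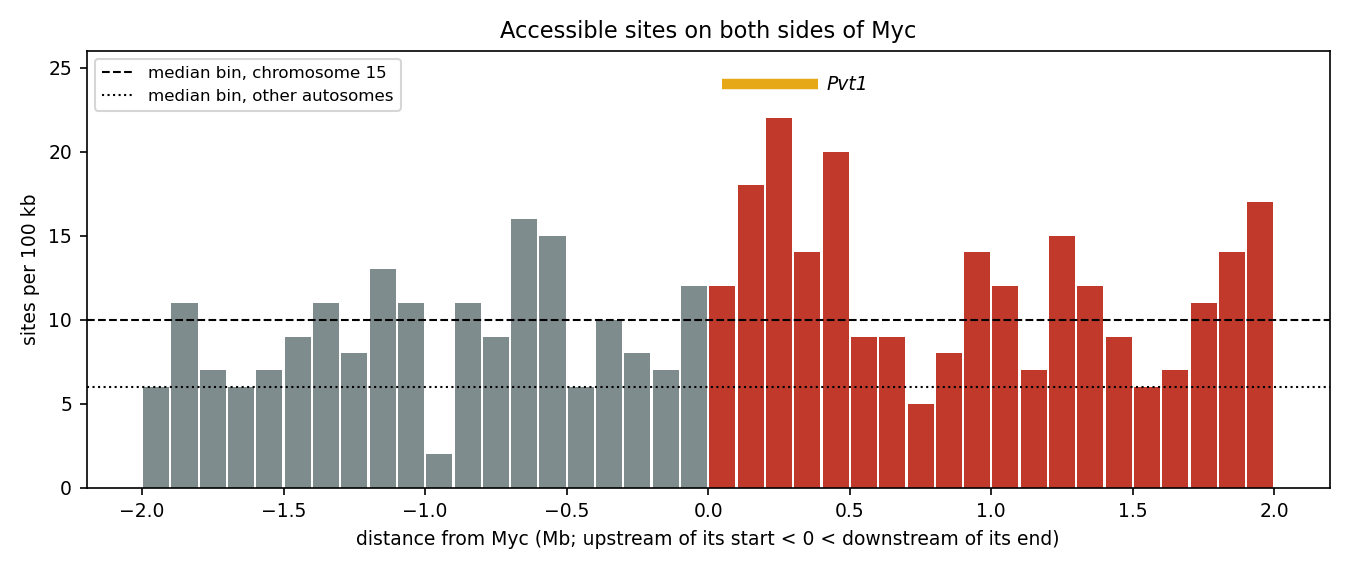
Number of accessible sites in bins of 100 kb over 2 Mb upstream (grey) and 2 Mb downstream (red) of Myc, with distance in Mb. The bar marks Pvt1, and the lines mark the median bin of chromosome 15 (10 sites) and of the other autosomes (6 sites). The bins within 500 kb downstream hold 12 to 22 sites.

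Pvt1, a long non-coding RNA gene (chr15:62037986-62378096, plus strand) that starts 47.6 kb past the end of Myc, took up most of this stretch. Its body held 59 sites, of which 51 were distal, or 17.3 per 100 kb. Only 1 of 10122 long non-coding genes held more sites, and of 367 such genes of at least 100 kb, with a median of 4.97 sites per 100 kb, 2 were denser. Among protein-coding genes, 51 held more sites in the body. These ranks are over all chromosomes, and no rank within chromosome 15 is given. On that chromosome the median bin of 100 kb held 10 sites and the upper quartile was 14. On the other autosomes these values were 6 and 9. The AP-1 motif was found in 30 of the 59 sites and the E-box in 8. Over all sites of chromosome 15, the shares were 35.2 and 8.58%, respectively. The sites in Pvt1 were wider, with a median of 730 bp compared to 561 bp on chromosome 15. A wider site has more room for any motif, and the shares were not adjusted for width.

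Over the downstream region as a whole, 99 of 225 distal sites or 44.0% (95% Wilson interval 37.7 to 50.5%) held the AP-1 motif, compared to 36.0% of the distal sites of chromosome 15 and 39.8% of all distal sites. The E-box was present in 11 or 4.89% (2.75 to 8.54%), compared to 7.08% on chromosome 15, and in no distal site more than once. The E2F motif and the CTCF consensus were each present in 2 or 0.889% (0.244 to 3.18%). On chromosome 15 their shares of distal sites were 3.33 and 3.32%, respectively. The EGR motif was present in 0, compared to 0.376%. The intervals cover the sampling of sites only. A CpG island was overlapped by 0 of the 225, a share close to the 0.741% of distal sites on chromosome 15. The 5 widest distal sites measured 1485 to 1756 bp. The widest, of 1756 bp, was located 1081 kb from the 5′ end of Myc (chr15:63065738-63067493), and 98.8% of distal sites were narrower. The next, of 1723 bp (chr15:62483236-62484958), was located 498.7 kb away and held 2 AP-1 motifs. Of the remaining 3, both the one at 107.0 kb and the one at 301.7 kb were in Pvt1, and the last was at 1616 kb, in the non-coding gene Gm41335.

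Other genes of the network were examined by lists. In the parallel branch, in which MLX takes the place of MAX and senses nutrients with MLXIP and MLXIPL, all 3 genes had a promoter site. Those of Mlx (1062 bp) and Mlxip (1654 bp) overlapped an island and held 1 E-box each. Mlxipl, which responds to glucose in liver, had 4 promoter sites, the widest of 1219 bp without island or E-box. In the RefSeq promoter windows of 300 bases the result differed. There the E-box occurred at Mlx and Mlxipl and not at Mlxip. Of 19 genes for cofactors (TRRAP and TIP60 subunits, SIN3 and deacetylases, ZBTB17, WDR5 and partners of MGA among others), 19 had a promoter site, 19 an island and 9 an E-box. Of 9 genes that control the turnover of MYC, 8 had a promoter site and an island and 5 an E-box, while Skp2, a ubiquitin ligase subunit, had none. Of 20 classical MYC targets, all had a promoter site, 18 an island and 18 an E-box, the exceptions for the latter being Ccnd2 and Tfam. These targets are in part known because of their E-boxes. Among all genes with an island and a widest promoter site of 1000 to 3200 bp, 31.5% held the E-box. In the RefSeq promoter windows of 300 bases, it occurred in 2 of 18 cofactor, 1 of 8 turnover and 5 of 15 target genes. The share over all entries was 8.09%. The lists are small, so these counts are descriptive.

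**Figure D4:**
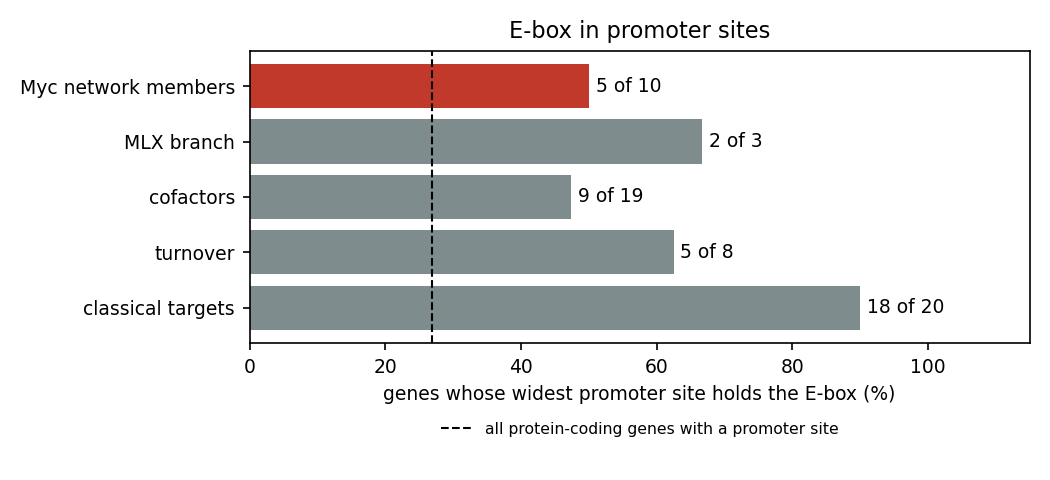
Share (%) of genes whose widest promoter site holds the E-box, for the 10 members and for the other lists, among the genes with a promoter site. Bars carry the counts, and the dashed line is the share over all protein-coding genes with a promoter site, 26.9%. Of the classical targets 18 of 20 hold it, and of the members 5 of 10. Among genes with an island and a widest site of 1000 to 3200 bp the share was 31.5%, which is not drawn.

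The labelled cell type was checked by its markers. All 10 fibroblast genes (such as Col1a1, Pdgfra, Thy1 and Twist2) had a promoter site, with a median width of 1999.5 bp (659 to 3150 bp). A promoter site was also present at 4 of 5 epithelial, 3 of 3 endothelial, 1 of 4 blood, 1 of 3 pluripotency and 1 of 2 liver genes. The genes without a site were Krt5, Ptprc, Spi1, Cd3e, Nanog, Zfp42 and Alb. Median widths were 1095 bp for epithelial and 706 bp for endothelial genes. The single blood, pluripotency and liver sites measured 382, 620 and 1019 bp. Over all protein-coding genes 70.8% had a promoter site, so its presence alone does not separate these cell types. A listed site does not give the level of a gene, so the expression of the Myc network is not measured by these data.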

How the data were processed

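ATAC-seq was performed by the authors on 10 libraries in 5 groups of 2 replicates. According to their methods and processing notes, reads were aligned with BWA to mm10, filtered with SAMtools, replicates were merged, narrow peaks were called with MACS2, and sites were tested for changed accessibility; versions, peak threshold, Tn5 shift and the joining of sites were not given in the sources used here. These choices affect the number and edges of sites. The deposited list holds the chromosome, start and end of each site, other values being absent. Thus, the planned edgeR test of dTAG-13 was not run.

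Starts were taken as 0-based and ends as excluded, and positions are printed 1-based. Of 153924 sites, 153682 on chromosomes 1 to 19, X and Y were annotated with GENCODE vM21. A promoter site overlapped 1 kb either side of any start site by at least 1 bp, and windows were overlapped by at least 1 bp. For each gene the widest promoter site was taken. CpG islands (at least 200 bp, GC over 0.5, observed to expected CpG over 0.6) were called on the genome (GRCm38) outside soft-masked repeats. Motifs were matched on both strands. The members, lists, windows and alternatives were chosen with earlier results of these data known. The cut at 500 kb downstream of Myc was not planned. Named were all members, Pvt1, the MLX branch, genes of a list without a site, sites at the members' starts, the widest distal site of each window, the 5 widest distal sites downstream of Myc and any there with 2 or more E-boxes; the second site next to Myc, the Mxi1 distal sites with 2 E-boxes and the genes without an E-box among the targets were named after their values were seen. An item is not reported here. Scripts were tested on simulated data. Python 3.11.15, NumPy 2.4.6, pandas 2.3.3, SciPy 1.17.1, Numba 0.67.0 and Matplotlib 3.10.9 were used.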

Additional observations from a re-analysis of the deposited data

How the results depend on the processing

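The 7 results were recomputed under 40 alternatives, of which 32 left the value close to the reported one (within 1.5 times for counts, within 1 SD over members for the width). The number of sites in the bodies and within 100 kb, 214, was 114 when only sites of the median width or wider were kept, 124 with a flank of 50 kb and 31 in the gene bodies alone. The 241 sites downstream of Myc became 113 with the wider sites and 131 within 1 Mb. The share of sites in the member windows that held an E-box, 14.0%, was 21.9% among the wider sites and 4.67% in the middle 200 bp of the sites. The number of members with an E-box in the widest promoter site, 5, was 3 in the middle 200 bp and 6 with the RefSeq annotation. Members with an island were 9, 8 with stricter islands and 10 with repeats left in, an alternative chosen after seeing the data. No paired analysis was possible because no library has values of its own in the deposited list; for the same reason no count model and no replicate left out could be computed. Depth is unknown, and a gene without a listed site may have weak accessibility.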

Other observations

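Skp2, whose product is part of a ubiquitin ligase for MYC, was the only gene of the turnover list without a promoter site. It lies on chromosome 15 (chr15:9111985-9155425) in a stretch of 282.9 kb without any listed site, which holds 3 protein-coding genes. Whether the list as used here holds every row for this stretch is not known. On this chromosome 11 longer stretches without a site were found.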
